A study of Mus musculus with 88 samples.

Results

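The nuclear genes for the subunits of oxidative phosphorylation were followed through mouse embryonic stem cells (mESCs) given plasmids for homeobox transcription factors and through fertilised and cloned embryos at the late 2-cell stage. Members were every gene whose symbol begins with Nduf plus a subunit letter and number, Uqcr, Cox4 to Cox8 or Atp5, together with Sdha, Sdhb, Sdhc and Sdhd, with names marked as pseudogenes by -ps left out. This gave 89 identifiers, with 88 symbols, of the 55364 in each table. Complex I (NADH dehydrogenase) had 38 members, complex II (succinate dehydrogenase) 4, complex III (cytochrome bc1) 8, complex IV (cytochrome c oxidase) 21 and complex V (ATP synthase) 18. Atp5o stood under ENSMUSG00000022956 and ENSMUSG00000116933, between which its reads could have been split. RefSeq lists 86 of the members as protein coding and Ndufs6b, Cox6c2 and Ndufa11b as pseudogenes. Such copies can share reads with their parent genes, and whether they did was not tested.

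Complexes I and II pass electrons from NADH and succinate to ubiquinone, complex III passes them on to cytochrome c, and complex IV reduces oxygen. Complexes I, III and IV pump protons across the inner mitochondrial membrane, and ATP synthase uses the returning protons to make ATP. Most subunits are encoded in the nucleus and the rest in mitochondrial DNA. The cleavage embryo inherits its mitochondria from the oocyte, and its early transcripts are a mixture of maternal RNA and RNA made after the genome is switched on at the 2-cell stage. Some subunits, above all in complex IV, have paired isoforms, of which one is expressed broadly and the other mainly in muscle, lung or germ cells.

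The mESCs were male, wild-type and of a hybrid C57BL/6 / 129 background, and grew with LIF, 0.5 µM PD0325901, a MEK inhibitor, and 3 µM CHIR99021, a GSK3 inhibitor. Plasmids were delivered by lipofection, so every group, the empty-plasmid control included, had been transfected. Empty plasmid, Dux, Obox3, Obox5 and Obox6 had 2 libraries each. Obox1, Obox2, Obox4ps27, Obox4ps35, Obox7, Obox8, Crxos1, Crxos2 and Crxos3 had 1 each. Dux switches on 2-cell genes in mESCs, and the Obox genes encode oocyte- and embryo-expressed homeobox factors. The embryos were wild-type, at the late 2-cell stage, and in 3 groups of 2 libraries. One group came from intracytoplasmic sperm injection (ICSI; BDF1 x BDF1). The others were clones made by somatic cell nuclear transfer (SCNT; BDF1), in which a cumulus cell nucleus replaced that of a mature oocyte, followed by injection of EGFP or Obox3 mRNA at 10 ng/µl. The ICSI embryos received no mRNA that the labels name, so nuclear transfer and mRNA injection cannot be told apart in the comparison of clones with ICSI embryos.

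Values were TPM, the deposited length-scaled transcript abundance, in which every library has the same total. At the measured steps of the low values, a 1 kb gene at 1 TPM stood for 2.27 to 7.37 reads in the mESC libraries. It stood for 7.41 and 5.06 reads in the ICSI libraries and 7.89 to 13.9 reads in the clone libraries. The ICSI libraries were thus the shallowest of the embryo libraries, and members near 1 TPM in them rested on few reads. The 10 highest genes took 48.9 to 73.8% of TPM in mESCs and 57.4 to 72.6% in embryos. All 8 mESC markers were at 1 TPM or more in each mESC library. All 8 oocyte markers were at 1 TPM or more in each embryo library, with sums of 757 and 710 TPM in ICSI embryos, 533 and 578 TPM in EGFP clones and 455 and 461 TPM in Obox3 clones. Of 10 cumulus and granulosa markers, 0 or 1 reached 1 TPM in an embryo library. The 2-cell markers summed to 4081 and 4800 TPM in the Dux libraries and to 2.33 and 0.582 TPM in the control libraries. They summed to 655 and 466 TPM in ICSI embryos, 118 and 166 TPM in EGFP clones and 175 and 259 TPM in Obox3 clones. Duxf3 stood at 1550 and 1980 TPM in the Dux libraries, Obox5 at 971 and 933 TPM in the Obox5 libraries and Obox6 at 2030 and 1960 TPM in the Obox6 libraries. Obox3 was counted at only 1.75 and 1.59 TPM in the Obox3 mESC libraries and at 0 in both control libraries. In embryos it stood at 78.7 and 64.6 TPM after ICSI, 0.47 and 3.22 TPM in EGFP clones and 6.74 and 5.02 TPM in Obox3 clones. Whether the delivered Obox3 sequence could be matched by the authors' gene models was not tested.

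Differences are given on the log2(TPM + 1) scale, which understates those of low genes. A member was said to rise or fall where limma gave an adjusted p under 0.05 over all genes tested. A log2 fold change of at least 1 in size was also required. Counts of members at an unadjusted p under 0.05, or not overlapping between groups, have no share of all genes beside them. They are not calls. Because TPM libraries share a total, the same tests were also run after median-ratio scaling, which divides each library by its median ratio to the average library over the genes detected in all of them.

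The members were high in mESCs and lower in embryos. Of the 89, 82 to 85 reached 1 TPM in each mESC library and 75 to 82 in each embryo library. Member TPM summed to 5205 and 4084 in the control mESCs, which was 0.521% and 0.408% of all TPM. The sums were 1143 and 1215 TPM in ICSI embryos, 902 and 1023 TPM in EGFP clones and 1086 and 1143 TPM in Obox3 clones. The mESC and embryo libraries stand in separate tables with no group in common and were not tested against each other. Per transcript length, the order of the members was alike in both: Spearman's rho between their mean levels was 0.823 over 89 members and 0.753 over all genes, which are not independent replicates. In mESCs the 5 highest mean levels were those of Cox8a (226 TPM), the ATP synthase alpha and beta subunits Atp5a1 (221 TPM) and Atp5b (210 TPM), Uqcr10 (137 TPM) and Cox5b (129 TPM). In embryos Cox8a (102.7 TPM), Atp5b (76.4 TPM) and Atp5a1 (68.6 TPM) again led. Cox8a ranged from 133 to 332 TPM over the mESC libraries and from 62.4 to 145 TPM over the embryo libraries. The lowest means in mESCs were those of Cox6a2 (0.121 TPM), Cox8c (0.208 TPM), Ndufa11b (0.209 TPM), Cox7b2 (0.391 TPM) and Cox8b (0.479 TPM), of which all but Ndufa11b are tissue-restricted complex IV isoforms.

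**Figure D1:**
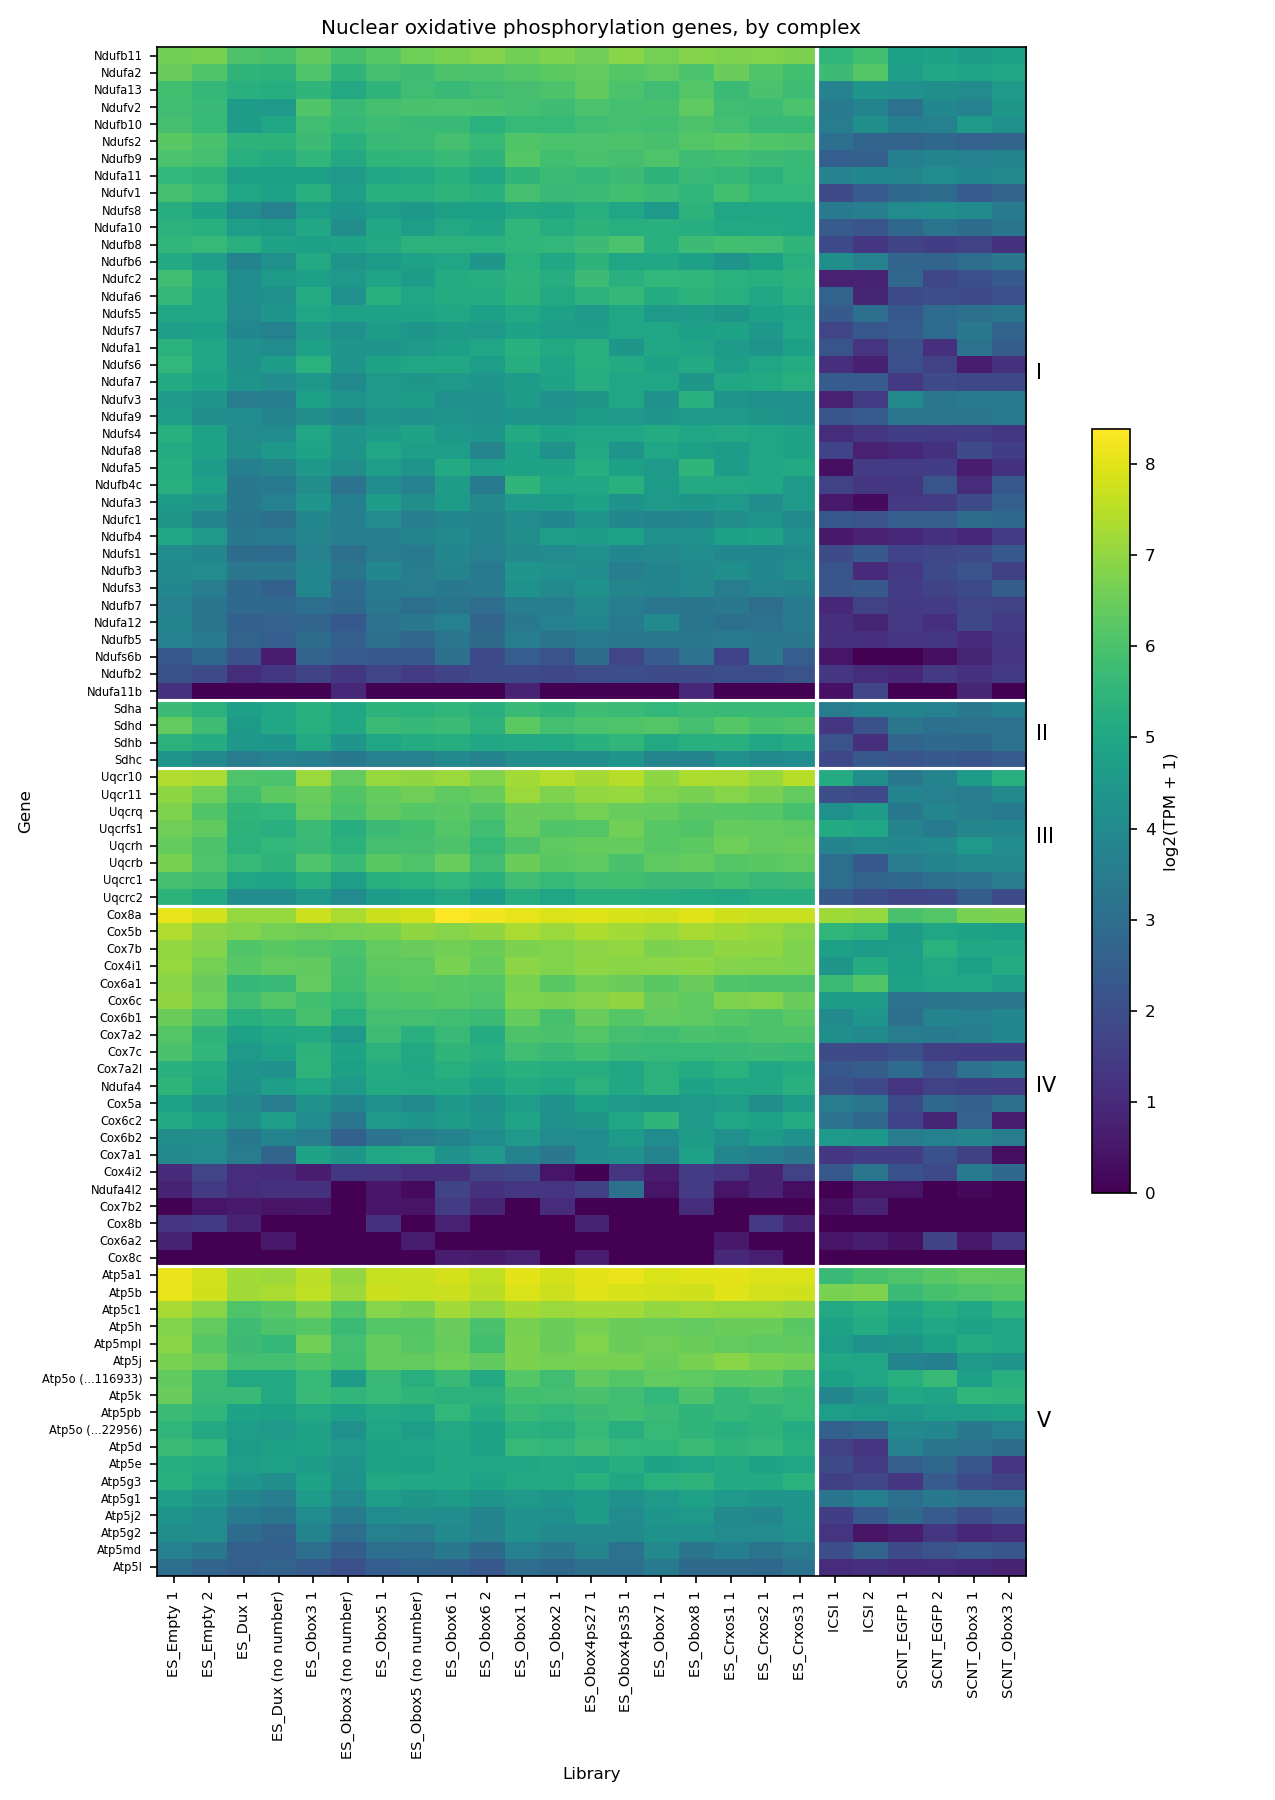
Each of the 89 members (vertical axis, ordered by complex and by level) in each of the 25 libraries (horizontal axis), coloured by log2(TPM + 1) from dark (0) to yellow (high). Most members are darker in the 6 embryo libraries than in the mESC libraries, with Cox4i2 among the exceptions, and the Dux columns are darker than the control columns.

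The complexes took steady shares of member TPM in mESCs. Over the 19 mESC libraries, complex I took 26.1 to 28.9%, complex II 3.16 to 3.93%, complex III 13.4 to 15.5%, complex IV 24.4 to 27.9% and complex V 27.1 to 30.2%. These shares are ratios within a library and do not move with the scaling. In embryos they differed between fertilised and cloned libraries. Complex IV took 34.9 and 34.2% in ICSI embryos, 24.8 and 26% in EGFP clones and 27.4 and 26% in Obox3 clones. Complex V took 31.7 and 32.4% in ICSI embryos, 38.3 and 38.6% in EGFP clones and 36.8 and 36.9% in Obox3 clones. The ICSI libraries were thus the highest for complex IV and the lowest for complex V, with no overlap with the clones. These shares are parts of 1 total and are not independent. Summed complex IV TPM was 399 and 416 after ICSI, 223 and 266 in EGFP clones and 297 in both Obox3 libraries. Summed complex V TPM overlapped, at 362 and 394 after ICSI, 346 and 395 in EGFP clones and 400 and 422 in Obox3 clones. Complex II also did not overlap, at 1.59 and 1.76% after ICSI against 2.51 to 3.43% in the 4 clone libraries. Complex I took 21.4 and 23.4% after ICSI and 23.5 to 25% in the clones, a narrow separation. Complex III overlapped, at 10.4 and 8.2% after ICSI and 8.21 to 10.5% in the clones. The separation of complexes IV and V remained without the highest member of each: complex IV without Cox8a took 25.4 and 26.2% after ICSI and 18.6 to 20.6% in the clones, and complex V without Atp5b took 24.9 and 25.9% and 32.7 to 34.8%. With 2 libraries a group these shares were not tested.

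**Figure D2:**
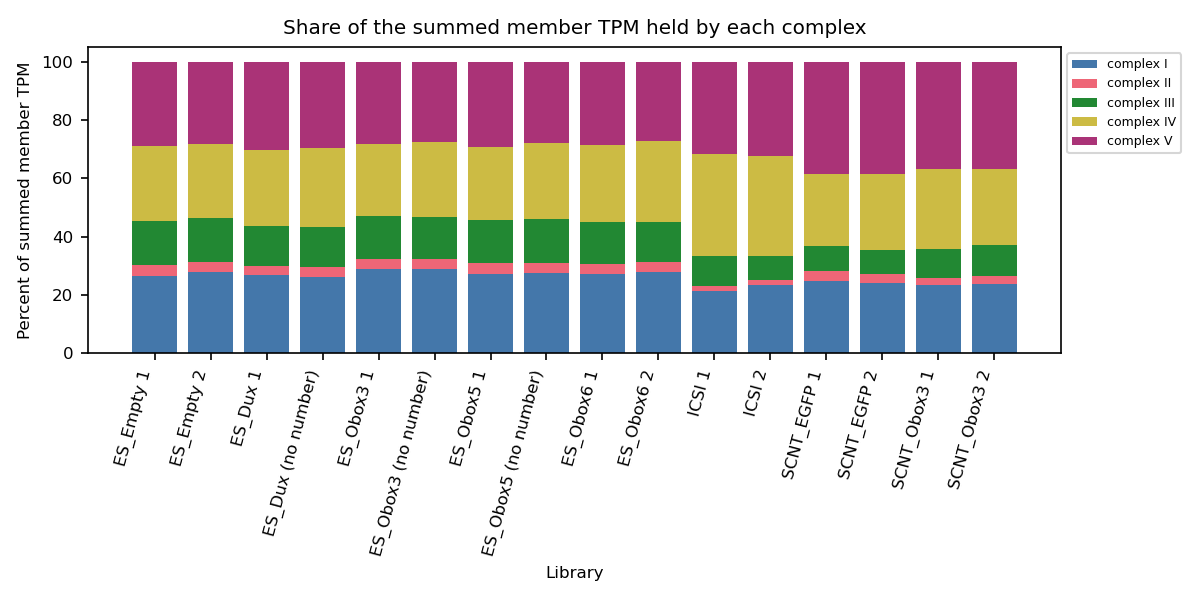
Stacked bars of the percent of summed member TPM held by each complex, 1 bar per library, for the replicated mESC groups and the embryo groups. Complex IV is thickest in the ICSI bars (34.9 and 34.2%) and complex V in the clone bars (36.8 to 38.6%), while the mESC bars look alike.

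Within-library ratios of 2 of the 8 isoform pairs, and the makeup of subunit c, separated all embryo libraries from all mESC libraries. Cox6b2, the testis-enriched form of subunit VIb, stood at 0.138 to 0.356 times the broadly expressed Cox6b1 in mESCs. The ratio was 1.49 and 1.04 in ICSI embryos, 1.4 and 0.914 in EGFP clones and 1.13 and 0.765 in Obox3 clones, so every embryo library was above every mESC library. Cox4i2, the lung-enriched and hypoxia-responsive form of subunit IV, ranked 84 of 89 by mean level in mESCs and 47 in embryos. Its ratio to Cox4i1 was 0 to 0.027 in mESCs, 0.191 and 0.248 after ICSI, 0.124 and 0.0809 in EGFP clones and 0.383 and 0.18 in Obox3 clones. The subunit c ring of ATP synthase is encoded by Atp5g1, Atp5g2 and Atp5g3, which give the same mature protein. Atp5g1 supplied 25.8 to 36.1% of their summed TPM in mESCs. It supplied 71.5 and 80.1% after ICSI, 77.6 and 62% in EGFP clones and 68.4 and 70.7% in Obox3 clones. Atp5g3 took 44.1 to 50.9% in mESCs and 16.4 to 28.2% in embryos. The ratios of the other pairs overlapped. Cox7a1 over Cox7a2 was 0.139 to 0.94 in mESCs, 0.089 and 0.126 after ICSI, 0.178 and 0.342 in EGFP clones and 0.184 and 0.0171 in Obox3 clones. The muscle form Cox8b and the testis form Cox8c were listed at 0 in every embryo library.

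Between cloned embryos injected with EGFP mRNA and ICSI embryos, each complex had at least 1 called member. Calls went both ways in complexes I, III and V. Complex IV had falls and no rise, and complex II had a rise and no fall. Of the 83 members tested, 7 rose (Ndufv3, Atp5d, Uqcr11, Sdhd, Ndufc2, the ENSMUSG00000022956 entry of Atp5o and Ndufb9) and 6 fell (Uqcrfs1, Cox6c, Atp5j, Ndufb6, Ndufa2 and Cox8a). Over all 18252 genes tested, 4.8% rose and 12.5% fell. The median log2 fold change was 0.09 over the members and -0.20 over all genes. After scaling, 12 members rose and 4 fell, against 6.11% and 8.84% of all genes. Without the first EGFP library 4 members rose as deposited. The same 7 rises and the falls of Uqcrfs1, Cox6c, Atp5j and Ndufb6 were called on both scales. Of the 89 members, 28 were higher and 26 lower in both EGFP clone libraries than in either ICSI library. No such count is given for all genes, and a lack of overlap is not a call. In the same comparison 8 of 9 measured 2-cell markers and 2 of 8 oocyte markers fell, and their part in the subunit changes was not tested. The libraries are bulk, so differences between the embryos or cells within a library are not seen.

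In complex I, Ndufv3, a small accessory subunit of the NADH-binding module, stood at 0.719 and 1.80 TPM in ICSI embryos, 14.8 and 8.86 TPM in EGFP clones and 9.61 and 10.2 TPM in Obox3 clones. The ICSI libraries were low and both clone groups high, with no overlap. Its log2 fold change in EGFP clones against ICSI embryos was 2.51 (SE 0.329, adjusted p = 0.00479, limma). Ndufb9, an accessory subunit of the membrane arm, stood at 4.64 and 4.89 TPM after ICSI, 11.4 and 12.8 TPM in EGFP clones and 11.9 and 12.8 TPM in Obox3 clones. Its rise in EGFP clones was 1.18 (SE 0.176, adjusted p = 0.00689). The 2 ICSI libraries again lay below all 4 clone libraries. Ndufc2, a membrane-arm subunit, stood at 0.715 and 0.786 TPM after ICSI and 5.77 and 2.46 TPM in EGFP clones (log2 fold change 1.47, adjusted p = 0.0299), and its call was lost in 3 of the 4 fits that left out 1 library. Ndufa2, which lies in the matrix arm, moved the other way: 52.9 and 69.6 TPM after ICSI against 24.8 and 30.6 TPM in EGFP clones (-1.11, adjusted p = 0.012), and after scaling its log2 fold change of -0.90 no longer met the size required. The core subunits gave no call: Ndufs1, the largest iron-sulfur subunit, had a log2 fold change of -0.42 and Ndufv1, which binds NADH, of 0.75. After scaling Ndufv1 was at 0.926 (adjusted p = 0.0256, limma), short of the size required.

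In complex II, the anchor subunit Sdhd stood at 1.53 and 3.21 TPM after ICSI, 9.08 and 7.39 TPM in EGFP clones and 7.87 and 7.77 TPM in Obox3 clones. The clones were higher in every library, and the log2 fold change for EGFP clones was 1.49 (SE 0.285, adjusted p = 0.014). The catalytic subunits gave no call as deposited: Sdha, the flavoprotein, had a log2 fold change of 0.05, and Sdhb, the iron-sulfur subunit, of 1.15 (adjusted p = 0.055), which was called at 1.29 after scaling (adjusted p = 0.0469).

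In complex III, 2 subunits moved in opposite directions. Uqcr11, the smallest subunit, stood at 2.95 and 2.62 TPM after ICSI, 12.6 and 11.6 TPM in EGFP clones and 10.8 and 14.5 TPM in Obox3 clones. It rose by a log2 fold change of 1.79 in EGFP clones (SE 0.211, adjusted p = 0.00377). The Rieske iron-sulfur protein Uqcrfs1, which carries electrons toward cytochrome c1, stood at 33.8 and 29.7 TPM after ICSI, 12.4 and 9.69 TPM in EGFP clones and 13 and 13.5 TPM in Obox3 clones. Here the ICSI libraries were the high ones, and the log2 fold change was -1.45 (SE 0.188, adjusted p = 0.00469). The core protein Uqcrc1 had a log2 fold change of 0.09 and gave no call.

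Complex IV had 0 rises and 2 falls among 17 members tested, a share of falls near the 12.5% over all genes. Its median log2 fold change was the lowest of the 5 complexes on both scales, at -0.66 as deposited and -0.45 after scaling. Cox6c, a small nuclear subunit, stood at 23.3 and 23.1 TPM after ICSI, 7.94 and 8.32 TPM in EGFP clones and 8.69 and 9 TPM in Obox3 clones. Its log2 fold change was -1.41 (SE 0.163, adjusted p = 0.00363). Cox8a, the highest member of all, stood at 145 and 132 TPM after ICSI. It stood at 62.4 and 68.7 TPM in EGFP clones and 103 and 105 TPM in Obox3 clones. Cox8a in the Obox3 clones thus lay between the other groups without overlap, but gave no call against either. Its fall in EGFP clones was -1.07 as deposited (adjusted p = 0.00646) and -0.85, short of the size required, after scaling. Cox4i1 (0.11) and Cox5a (-1.06, adjusted p = 0.0739) gave no call.

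In complex V, the delta subunit Atp5d, part of the central stalk, stood at 2.05 and 1.43 TPM after ICSI, 11.9 and 8.57 TPM in EGFP clones and 7.68 and 6.75 TPM in Obox3 clones. Its rise in EGFP clones was 2.03 on the log2 scale (SE 0.243, adjusted p = 0.00393). Atp5j, coupling factor 6 of the outer stalk, fell: it stood at 31.4 and 30.3 TPM after ICSI, 12.9 and 11.3 TPM in EGFP clones and 21.9 and 19.1 TPM in Obox3 clones (log2 fold change -1.29, SE 0.17, adjusted p = 0.00497). The catalytic core gave no call, with log2 fold changes of 0.34 for Atp5a1 and -0.91 for Atp5b. Atp5b stood at 103 and 107 TPM after ICSI and 51.0 and 60.2 TPM in EGFP clones, and the size of its difference was under the threshold although its adjusted p was 0.0115. Ndufv3, Atp5d, Uqcr11, Ndufb9 and Cox6c were called in each of the 4 fits that left out 1 library, on both scales.

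**Figure D3:**
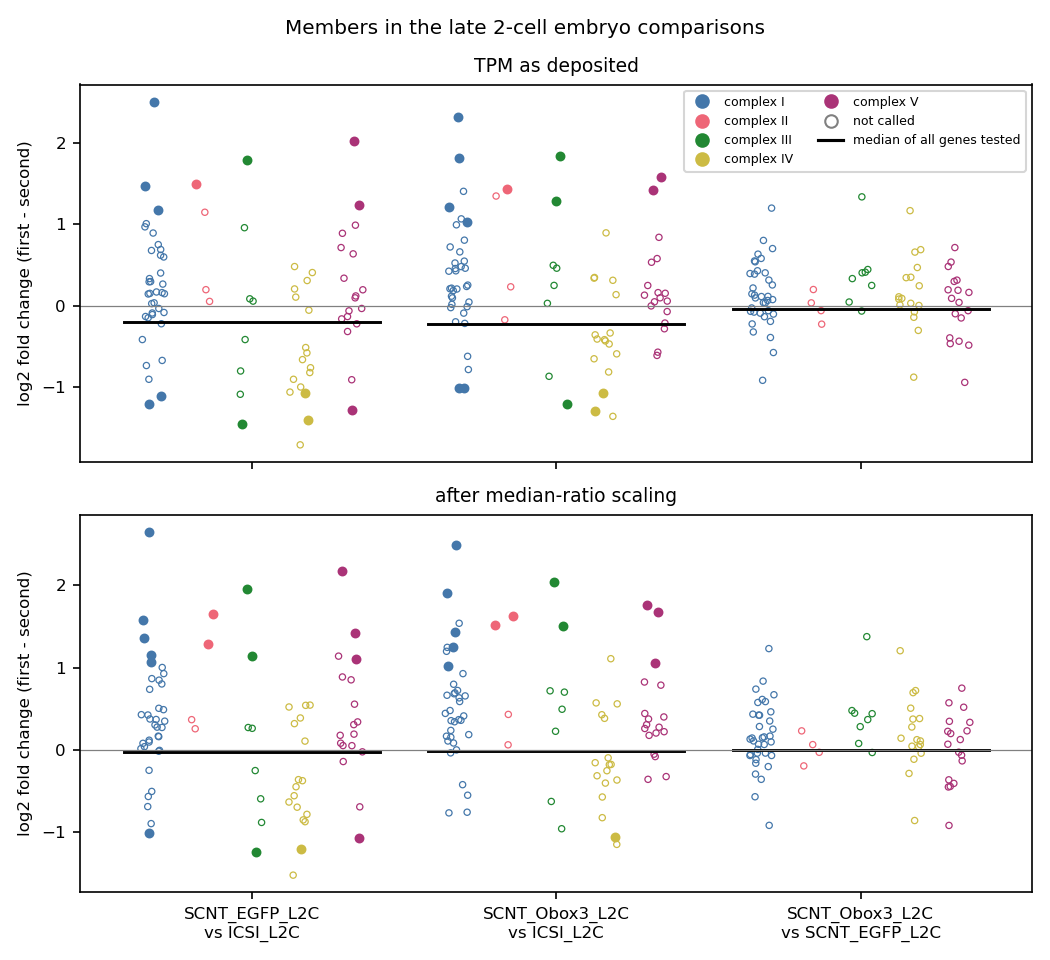
Log2 fold change of each tested member (points, coloured by complex, filled where called) in the 3 embryo comparisons, as deposited and after median-ratio scaling, with the median of all genes tested as a black line. Ndufv3 is the highest point against ICSI embryos (2.51 in EGFP clones and 2.32 in Obox3 clones as deposited), and no point is filled between the clone groups.

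Injecting Obox3 in place of EGFP mRNA gave 0 called members of 83, with 11 at an unadjusted p under 0.05 in limma. Calls were rare over all genes as well, at 0.11% higher and 0.0438% lower. After scaling the members still gave 0 calls, with 1.42% of all genes higher and 0.171% lower. The largest differences, none of them called, were those of Uqcr10 (1.34, adjusted p = 0.159), Ndufa1 (1.2) and Cox4i2 (1.17). Uqcr10, a small complex III subunit, stood at 34.4 and 16.9 TPM after ICSI, 9.22 and 12.7 TPM in EGFP clones and 22.6 and 37.1 TPM in Obox3 clones. The Obox3 clones lay above the EGFP clones and overlapped the ICSI embryos. Atp5j (0.72) and Cox8a (0.66) each had an adjusted p of 0.116 in limma, with the 2 clone groups not overlapping. Such separation went both ways, with 30 of the 89 members higher and 12 lower in both Obox3 clone libraries than in either EGFP library. For all genes no such count is given.

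Obox3 clones were then set against ICSI embryos, a comparison that shares its control libraries with that of the EGFP clones. Of 83 members, 9 rose and 5 fell, where 2.8% of all genes rose and 6.31% fell. The rises were Ndufv3 (2.32), Uqcr11 (1.84), Ndufa3 (1.81), Atp5d (1.59), Sdhd and Atp5k (both 1.43), Uqcrb (1.29), Ndufb9 (1.22) and Ndufa9 (1.03). The falls were Cox6c (-1.30), Uqcrfs1 (-1.2), Cox6a1 (-1.07), Ndufa2 (-1.02) and Ndufb11 (-1.01). After scaling, 12 rose and 1 fell, against 4.09% and 3.87% of all genes, and the fall was that of Cox6c. Uqcr11 alone was called in each of the 4 as-deposited fits without 1 library. Those fits gave 1 to 5 rises and 0 to 2 falls, so the other 13 calls each rested on the full set of 4 libraries in at least 1 of them. Atp5k, the e subunit of ATP synthase, stood at 13.4 and 18.3 TPM after ICSI, 30.8 and 29.0 TPM in EGFP clones and 45.1 and 42.5 TPM in Obox3 clones, with the 3 groups not overlapping. Cox6a1, the broadly expressed form of subunit VIa, stood at 51.1 and 67.8 TPM after ICSI, 27.9 and 30.1 TPM in EGFP clones and 30.7 and 24.5 TPM in Obox3 clones. The clones were lower in all 4 libraries.

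Genes that act on the subunits were counted beside them. In EGFP clones against ICSI embryos, 1 of 17 tested regulators of respiratory genes rose and 5 fell, as deposited and after scaling. Over all genes 4.8% rose and 12.5% fell as deposited, and 6.11% and 8.84% did after scaling, and the counts of the lists that follow are to be read beside those shares. Tfam, which packages and transcribes mitochondrial DNA, rose from 2.01 and 1.96 TPM to 6.07 and 5.44 TPM (log2 fold change 1.18, adjusted p = 0.0126). Gabpa, the DNA-binding subunit of the ETS factor NRF2, stood at 123.5 and 139.6 TPM after ICSI, 29.4 and 35.7 TPM in EGFP clones and 72.3 and 52.5 TPM in Obox3 clones. Its groups did not overlap, and its log2 fold change was -1.99 (adjusted p = 0.00308) in EGFP clones and -1.08 (adjusted p = 0.0263) in Obox3 clones, the second short of the size required after scaling, at -0.83. Esrrb, an orphan nuclear receptor, fell by 2.09 on the log2 scale in EGFP clones. Among 15 tested genes of ubiquinone and electron transfer, 3 rose and 1 fell as deposited in EGFP clones. Etfb, a subunit of the electron transfer flavoprotein, rose from 1.45 and 2.60 TPM to 15.7 and 13.5 TPM (2.39), and Coq4, needed for ubiquinone synthesis, fell from 24.7 and 22.6 TPM to 2.92 and 5.87 TPM (-2.25). Of 20 complex IV assembly factors, 2 rose and 4 fell as deposited and 3 rose and 0 fell after scaling. Pet100 rose from 1.73 and 1.66 TPM to 10.1 and 9.90 TPM (2.03). Assembly factors of complex I gave 1 rise, Acad9 (1.15), among 15, and those of complex V 1 rise among 3. The ADP/ATP and phosphate carriers gave 0 calls among 4 as deposited, with 1 at an unadjusted p under 0.05, and 1 rise after scaling. Those of complex II gave 0 calls among 2 and those of complex III 0 among 6 in limma, with 0 of either at an unadjusted p under 0.05.

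Promoters were read from RefSeq (GRCm38.p6) as the 250 bases before and the first 50 bases of each gene, which 68 of the 88 symbols matched. The ETS motif CCGGAAG, on either strand, stood in 17 (25.0%) of them, against 12.9% of protein-coding genes with promoters of the same length. A gene with several listed promoters counted once if any of them held the motif. The palindromic core motif of NRF1, GCGCA joined to its reverse complement TGCGC, stood in 5 (7.35%), against 1.47%. AAGATGG, the YY1 motif, stood in 11 (16.2%) against 7.18%. GGATTA, a core bound by Otx-related homeodomains, stood in 6 (8.82%) against 7.56%, and TATAAA in 8 (11.8%) against 14.8%. These were also searched on either strand. The ETS and NRF1 motifs contain the dinucleotide CpG, of which promoters held a median of 19 over the members and 13 over protein-coding genes. The part of this in the motif shares was not tested. The ETS and YY1 motifs share the letters AAG, so that 1 run of bases could hold both, which was the case in 0 member promoters. Of the members that rose in EGFP clones, 6 had a promoter, of which 2 held the ETS motif and 0 the NRF1 motif. Of those that fell, 4 had a promoter, of which 3 held the ETS motif. A match describes letters, not binding. The promoters of a strong riser and of a pair with both motifs that moved oppositely in Obox3 clones are shown, chosen after their values were seen. Capitals mark the ETS motif and, in the latter pair, also the NRF1 motif: Uqcr11 (chr10:80406772-80407071, minus strand), Atp5k (chr5:108434350-108434649, minus strand) and Cox6a1 (chr5:115348909-115349208, minus strand).
Uqcr11: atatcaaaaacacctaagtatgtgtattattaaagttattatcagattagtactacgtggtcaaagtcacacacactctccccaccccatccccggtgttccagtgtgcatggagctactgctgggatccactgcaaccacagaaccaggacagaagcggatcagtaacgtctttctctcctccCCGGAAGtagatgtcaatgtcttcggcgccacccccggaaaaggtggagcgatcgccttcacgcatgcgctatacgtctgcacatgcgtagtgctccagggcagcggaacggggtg
Atp5k: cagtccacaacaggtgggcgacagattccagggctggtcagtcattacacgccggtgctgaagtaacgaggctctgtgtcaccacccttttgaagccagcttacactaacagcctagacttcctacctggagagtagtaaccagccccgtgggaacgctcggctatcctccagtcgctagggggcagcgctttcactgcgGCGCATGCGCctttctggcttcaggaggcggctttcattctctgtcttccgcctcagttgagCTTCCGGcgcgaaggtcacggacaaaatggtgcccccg
Cox6a1: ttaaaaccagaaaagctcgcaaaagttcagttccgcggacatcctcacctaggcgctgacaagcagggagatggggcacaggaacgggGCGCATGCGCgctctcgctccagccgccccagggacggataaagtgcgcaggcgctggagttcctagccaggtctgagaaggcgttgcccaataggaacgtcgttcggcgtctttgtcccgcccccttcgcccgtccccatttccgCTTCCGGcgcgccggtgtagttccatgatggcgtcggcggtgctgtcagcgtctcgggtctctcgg
Atp5k and Cox6a1 each hold 1 NRF1 core upstream of an ETS motif written on the other strand as CTTCCGG, and Atp5k rose while Cox6a1 fell in Obox3 clones against ICSI embryos.

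In mESCs, the members took a smaller share of TPM in the Dux libraries than in the controls. Member TPM summed to 2543 and 2603 in the Dux libraries against 5205 and 4084 in the controls. Of the 89 members, 83 were lower in both Dux libraries than in either control. No such count is given for all genes, whose median also lay lower with Dux. Of 85 tested, 0 rose and 16 (18.8%) fell, where 4.12% of all genes rose and 44.4% fell. The median log2 fold change was -0.85 over the members and -0.97 over all genes. After scaling, which takes out that shift, 0 members rose and 0 fell, with 60 at an unadjusted p under 0.05 in limma. The share of all genes at that p is not given here. All genes then gave 8.32% higher and 2.2% lower, the members' median was 0.55 against -0.01 over all genes, and 83 of 86 members lay above the median gene. The direction of the members in Dux cells therefore depended on the scale. Falls as deposited were counted for 9 of 37 members of complex I, 1 of 4 of II, 3 of 8 of III, 2 of 18 of IV and 1 of 18 of V. Ndufb4c, whose symbol marks a copy of Ndufb4, had the lowest value, at 37.5 and 26.8 TPM in the controls and 9.41 and 9.75 TPM with Dux (log2 fold change -1.63, SE 0.422, adjusted p = 0.00968), and its reads could be split with Ndufb4. Uqcr10 stood at 166 and 159 TPM in the controls and 66.0 and 62.7 TPM with Dux (-1.33, adjusted p = 0.0018). Atp5g2 followed at -1.32, Ndufb4 and Sdhd at -1.29 and Ndufa5 at -1.2. Between Dux and control, the count of falls was 5 without the first control library and 41 without the second. The regulators gave 16 falls among 17 tested and the complex IV assembly factors 14 among 22 as deposited, and 0 falls each after scaling.

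**Figure D4:**
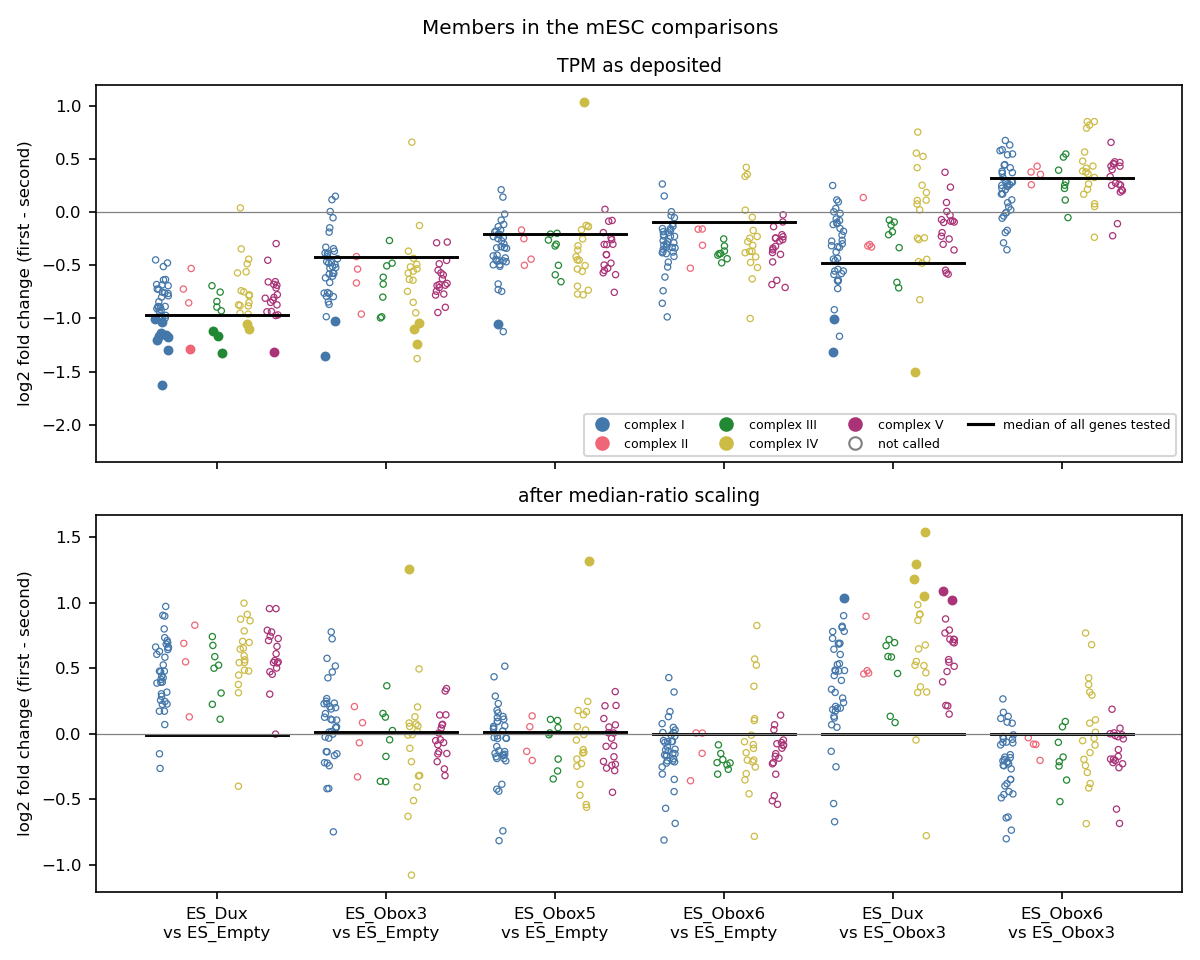
Log2 fold change of each tested member (points, coloured by complex, filled where called) in the 6 mESC comparisons, as deposited and after median-ratio scaling, with the median of all genes tested as a black line. With Dux against empty plasmid the members lie mostly below 0 as deposited and mostly above 0 after scaling, and the highest point with Obox3 and with Obox5 is Cox7a1.

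With Obox3, 0 of 85 members rose and 5 fell as deposited, where 4.67% of all genes rose and 13.6% fell. The falls were Ndufb4c (-1.36), Cox6c2 (-1.24), the testis form Cox6b2 (-1.10), Cox6c (-1.04) and Ndufb4 (-1.03). The median was -0.58 over the members and -0.42 over all genes. After scaling 0 fell and Cox7a1 rose, with 7.99% of all genes higher and 3.82% lower. Without the first control library, or without the unnumbered Obox3 library, 0 members fell. Without the second control library 9 fell, and without the numbered Obox3 library 19 fell. With Obox5, 1 member rose (Cox7a1) and 1 fell (Ndufb4, -1.05, adjusted p = 0.0126), where 4.79% of all genes rose and 5.47% fell. Of the 4 fits that leave out a library, only the one without the second control library called that fall. After scaling 1 rose and 0 fell, against 6.19% and 2.41% of all genes. With Obox6, 0 members rose and 0 fell on either scale, where 2.39% of all genes rose and 1.99% fell as deposited and 2.85% and 1.34% did after scaling. In limma 9 members had an unadjusted p under 0.05 as deposited. Cox8a stood at 332 and 299 TPM with Obox6 against 273 and 222 TPM in the controls, without overlap and without a call. Among the regulators of respiratory genes, Myc fell on both scales with Obox3 (-2.60 as deposited, -2.04 scaled), Obox5 (-2.16 and -1.81) and Obox6 (-1.41 and -1.21), comparisons that share their control libraries. Of 17 regulators tested, 4, 2 and 2 fell as deposited with Obox3, Obox5 and Obox6, and 0 rose.

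Cox7a1, the heart and muscle form of subunit VIIa, had the highest fold change of all members tested with Obox3 and with Obox5. It stood at 14.6 and 15.3 TPM in the controls, 10.8 and 5.61 TPM with Dux, 28.0 and 20.8 TPM with Obox3, 31.0 and 32.5 TPM with Obox5 and 19.0 and 21.8 TPM with Obox6. In deposited TPM, every Obox3, Obox5 and Obox6 library was above both controls, and both Dux libraries were below them. The place of the Dux libraries depends on the scale. Median-ratio scaling divides them by 0.4094 and 0.4506 and the controls by 1.289 and 1.155. The single libraries of Obox8 (26.8 TPM), Obox4ps35 (17.7 TPM) and Obox4ps27 (16.2 TPM) were also above both controls as deposited. Those of the other single constructs were below both. Its broadly expressed partner Cox7a2 stood at 68.9 and 42.4 TPM in the controls, 26.8 and 31.6 TPM with Dux, 34.2 and 22.1 TPM with Obox3, 53.7 and 38.0 TPM with Obox5 and 48.7 and 34.9 TPM with Obox6. The ratio of Cox7a1 to Cox7a2, which does not depend on the scaling, was 0.211 and 0.362 in the controls, 0.818 and 0.94 with Obox3, 0.577 and 0.853 with Obox5 and 0.389 and 0.626 with Obox6. It was 0.404 and 0.178 with Dux, 0.43 in the Obox8 library and 0.139 to 0.298 in the other libraries of 1 construct each. In limma, Cox7a1 rose with Obox5 both as deposited (log2 fold change 1.04, adjusted p = 0.0375) and on scaled values (1.32, adjusted p = 0.0244). With Obox3 the rise was called after scaling only, at 1.26 (adjusted p = 0.0228). Each call was lost when any 1 of the 4 libraries was left out, with adjusted p of 0.115 to 0.165 for Obox5 as deposited, 0.0771 to 0.128 for Obox5 after scaling and 0.0736 to 0.118 for Obox3 after scaling.

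**Figure D5:**
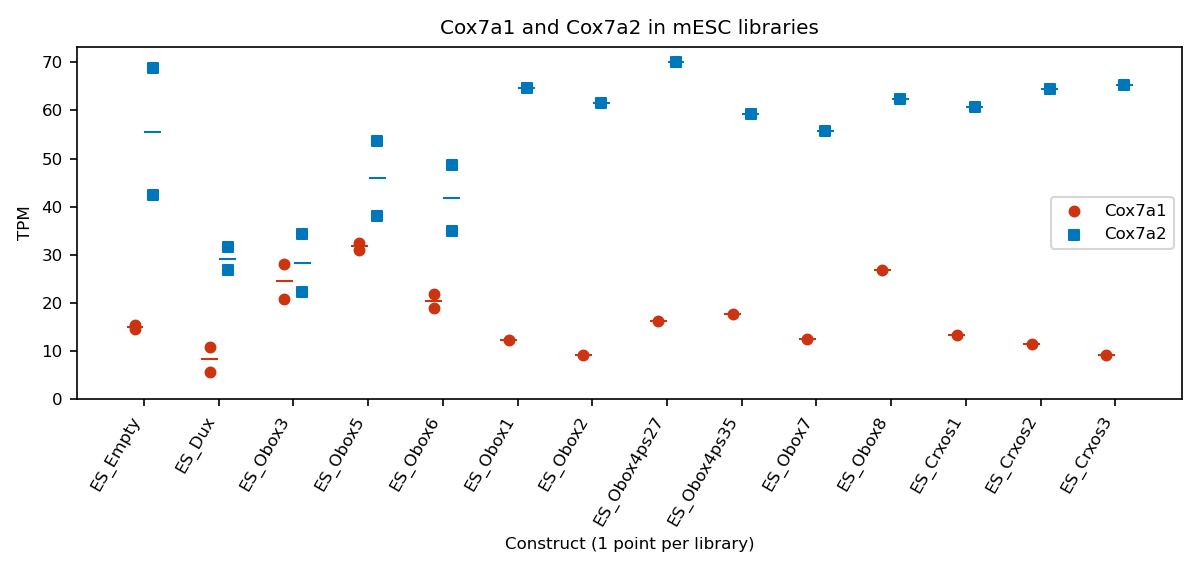
TPM of Cox7a1 (circles) and Cox7a2 (squares) in the mESC libraries, 1 point per library with a bar at the mean, by construct. Cox7a1 stands highest with Obox5 (31.0 and 32.5 TPM), and the symbols come closest with Obox3.

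The promoters of the pair (RefSeq, GRCm38.p6) are shown because they differ in the density of CpG, the dinucleotide marked in capitals. Cox7a1 (chr7:30183921-30184220, plus strand) has 7 CpG in 300 bases, and Cox7a2 (chr9:79759804-79760103, minus strand) has 20, where the median is 19 over the 68 members and 13 over protein-coding genes.
Cox7a1: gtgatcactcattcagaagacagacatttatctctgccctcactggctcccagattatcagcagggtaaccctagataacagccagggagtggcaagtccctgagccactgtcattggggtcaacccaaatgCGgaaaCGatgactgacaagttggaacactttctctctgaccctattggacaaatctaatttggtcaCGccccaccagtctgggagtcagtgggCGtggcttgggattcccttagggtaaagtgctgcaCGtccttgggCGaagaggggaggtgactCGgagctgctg
Cox7a2: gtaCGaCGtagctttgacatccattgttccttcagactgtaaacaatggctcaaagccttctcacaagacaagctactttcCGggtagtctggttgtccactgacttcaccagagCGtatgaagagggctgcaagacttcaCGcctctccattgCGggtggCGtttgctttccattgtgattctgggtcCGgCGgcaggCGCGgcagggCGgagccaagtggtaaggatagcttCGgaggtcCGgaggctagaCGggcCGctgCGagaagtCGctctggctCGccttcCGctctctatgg
The Cox7a1 window thus lies below the protein-coding median and the Cox7a2 window above it.

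Dux and Obox3 cells were also compared directly. Of 85 members, 0 rose and 3 fell with Dux, where 3.42% of all genes rose and 20.3% fell. Without the unnumbered Obox3 library 8 fell, and without the numbered one 1 rose and 2 fell. With all libraries, the 3 falls were Cox7a1 (-1.51, adjusted p = 0.00328), the complex I flavoprotein-module subunit Ndufv2 (-1.31, adjusted p = 0.00104) and Ndufv3 (-1.0, adjusted p = 0.00384). Ndufv2 stood at 54.5 and 49.8 TPM in the controls, 23.9 and 21.5 TPM with Dux and 67.2 and 49.8 TPM with Obox3. In deposited TPM its Dux libraries lay below all others of the 5 groups, an order that depends on the scale. After scaling the split turned: 7 members were higher with Dux, Cox6c2 (1.54), Cox6b2 (1.29), Ndufa4l2 (1.18), Atp5l (1.09), Cox6c (1.05), Ndufb8 (1.04) and Atp5e (1.02), and 0 were lower, against 9.49% and 9.46% of all genes. Obox6 and Obox3 cells differed in 0 members on either scale, where 6.61% of all genes were higher and 2.52% lower with Obox6 as deposited and 2.65% and 4.96% after scaling, and 13 members had an unadjusted p under 0.05 in limma as deposited. Without the numbered Obox3 library 4 members were higher with Obox6.

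The 9 constructs with 1 library each had no test. After scaling, each was set against the mean of the 2 control libraries. Of 86 members, 0 or 1 lay above a log2 difference of 1 and 0 or 1 below it in each construct. Of all genes, 3.1% lay above with Obox1, 3.2% with Obox2 and with Obox4ps27, 3.56% with Obox4ps35, 5.32% with Obox7, 5.56% with Obox8, 3.38% with Crxos1, 3.61% with Crxos2 and 6.1% with Crxos3. In the same order, 3.05%, 2.49%, 2.74%, 3.18%, 2.25%, 2.75%, 2%, 2.2% and 1.49% lay below. The members past that size were all low ones. Cox8b, at 1.49 and 1.71 TPM in the controls, was listed at 0 in 6 constructs, Cox4i2 had a difference of -1.22 in Obox4ps27 and Ndufa4l2 one of 1.98 in Obox4ps35. Median differences over the members ran from -0.17 to 0.11, and summed member TPM ran from 4263 to 4907, within the span of the 2 control libraries.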

How the data were processed

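RNA-seq libraries of transfected mESCs (19) and late 2-cell embryos (6) were used, 25 of the 88 samples in the series; the other 63 were not analysed here. Total RNA was made into libraries with a stranded SMART-seq kit, per the labels' protocols. The deposited values were TPM per gene, per the file headers, and summed to the same total in every library. HISAT2, Trim Galore, featureCounts 1.6.5 and mm10 are named in the submitters' processing notes. The annotation used for counting was not given in the sources used here, nor were the strand setting and the handling of multiply mapped reads. For Dux, Obox3 and Obox5, 1 of the 2 columns could be matched to its group but not to a replicate number and is called unnumbered.

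Genes with at least 1 TPM in at least 2 libraries of a fit entered limma 3.58.1 (with statmod 1.5.0, under R 4.3.3) as log2(TPM + 1). Moderation was robust and followed the trend of variance with level, and p-values were adjusted by Benjamini-Hochberg over all genes tested. There was 1 fit for the 10 replicated mESC libraries and 1 for the 6 embryo libraries. After scaling, 86 members in mESCs and 83 in embryos were tested, against 85 and 83 as deposited. The script was tested on simulated data. The labels do not say that replicates came from separate cultures or embryo collections, and the p-values therefore rest on a spread between libraries that may be technical.

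The members and lists were chosen with earlier results of these data known. Named in each comparison were up to 6 called members per direction, catalytic subunits, tissue-restricted isoforms with their partners, the highest and lowest members, and up to 2 called genes per list and direction. Members named beyond this rule, such as further called ones and those called only after scaling, were chosen after their values were seen. Alternatives were median-ratio scaling, a pseudocount of 0.1, no filter, a filter at 5 TPM, no fold minimum, a replicate block and leaving out each library. Of the 13 mitochondrially encoded subunits, 0 stood in the tables under the symbols searched, and they were not analysed here.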

Additional observations from a re-analysis of the deposited data

How the results depend on the processing

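With median-ratio scaling the falls numbered 0 for Dux, Obox3 and Obox5 against empty plasmid, and Obox3 gained 1 rise. Dux against Obox3 then gave 7 rises and 0 falls, EGFP clones against ICSI embryos 12 rises, and Obox3 clones against ICSI embryos 1 fall. In Dux against empty plasmid, scaling turned Uqcr10 to 0.11, Ndufb4 to 0.071, Sdhd to 0.13, Ndufa5 to 0.17, Ndufs1 to 0.29 and Uqcrfs1 to 0.31, none of them called. The scaling sets the median difference of all genes near 0 by its construction.

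A pseudocount of 0.1 gave 8 falls for Obox3 against empty plasmid. With no filter on low values there were 3 falls for Obox3 and 0 rises for Obox5 against empty plasmid, and 5 rises and 2 falls for Obox3 clones against ICSI embryos. The cause was not tested. With no fold minimum the falls numbered 71 for Dux, 28 for Obox3 and 2 for Obox5 against empty plasmid, 8 for Dux against Obox3 and 12 for EGFP clones against ICSI embryos, and Obox6 against Obox3 gave 1 rise. A filter at 5 TPM moved none of the counts of rises or falls by over 1.5 times.

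Leaving out 1 library at a time gave 5 to 41 falls for Dux against empty plasmid, 0 to 19 for Obox3, and 0 rises and 0 to 1 falls for Obox5. Dux against Obox3 gave 0 to 1 rises and 2 to 8 falls, with 8 without the unnumbered Obox3 library. Obox6 against Obox3 gave 0 to 4 rises, with 4 without the numbered Obox3 library. EGFP clones against ICSI embryos gave 4 to 8 rises, with 4 without the first EGFP library, and 4 to 7 falls. Obox3 clones against ICSI embryos gave 1 to 5 rises and 0 to 2 falls, with 1 rise and 0 falls without the second Obox3 library. Where a group was left with 1 library, that library was assumed to vary like the other groups. Leave-out fits of Cox7a1 on the scaled values were added after seeing the data.

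Replicate numbers did not pair the libraries: deviations of same-numbered libraries correlated at 0.014 to 0.0666. With the replicate block, EGFP clones against ICSI embryos gave 7 rises and 7 falls, Obox3 clones against ICSI embryos 10 rises and 5 falls, and Obox3 against EGFP clones and Obox6 against empty plasmid 0 of each.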
